A study of Mus musculus with 44 samples.

Results

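The genes described here are 8 carriers of the Slc16 family of monocarboxylate transporters, Slc16a1, Slc16a3, Slc16a5, Slc16a6, Slc16a7, Slc16a9, Slc16a10 and Slc16a12, and Bsg, which encodes basigin. They were chosen by name, as listed members of the family other than Slc16a13, the gene deleted in the KO mice, and Slc16a11, together with the membrane partner of the lactate carriers. These are 9 of the 38202 genes in the deposited tables, and all 9 were found. Poly(A) RNA from liver and from skeletal muscle was sequenced in 11 WT and 11 Slc16a13 KO mice, male littermates on the C57BL/6N background, which gives 44 libraries. The KO mice carry a CRISPR/Cas9 deletion of the Slc16a13 promoter and first exons in the whole body. All mice, WT included, had received a high-fat diet (HFD) for 15 weeks, were 20 weeks old and were killed after an overnight fast. The question for these genes is whether other carriers of the family change when Slc16a13 is missing, and where each is expressed.

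Monocarboxylate transporters move lactate, pyruvate, ketone bodies and related small acids across membranes, for the best known members together with a proton. Slc16a1 (MCT1), Slc16a7 (MCT2) and Slc16a3 (MCT4) are the proton-coupled lactate and pyruvate carriers, and MCT4 is known for lactate export from glycolytic muscle fibres. Basigin is a single-pass glycoprotein that brings MCT1 and MCT4 to the cell surface. Slc16a10 (TAT1) carries aromatic amino acids and thyroid hormones, Slc16a9 carnitine, Slc16a12 creatine and Slc16a6 ketone bodies and taurine, while Slc16a5 (MCT6) is known mainly as a carrier of drugs.

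Sequencing depth ranged from 20150712 to 35218243 counted reads per library (median 25408792, n = 44). Summed hepatocyte markers were at least 92000 CPM (counts scaled to a common depth, as is usual for such tables) in every liver library and at most 11.6 CPM in muscle, and summed myofibre markers were at least 103900 CPM in muscle and at most 47.6 CPM in liver. In liver, Slc16a13 had 99 to 302 reads in WT and 0 to 8 in KO (log2 fold change -5.45, edgeR adjusted p = 2.8e-11). In muscle it had 4 to 22 reads in WT and 11 to 40 in the libraries labelled KO (log2 fold change 0.64, edgeR adjusted p = 0.49). The fall that the label implies was thus not seen in muscle, where reads were few in WT too. The reason was not tested, and muscle groups are given as labelled. In 4 KO livers (mice 532, 602, 583 and 611) log2 CPM, taken against the average liver, fell as gene length rose. Their slopes were -0.53, -0.42, -0.25 and -0.079 per doubling of length, and those of the 18 other livers were 0.037 to 0.108. Since slopes are taken against the average of the same livers, steep negative slopes push the others above 0, so the sign alone is a relative mark. Muscle slopes, taken against the average muscle, ranged from -0.069 to 0.051, with the lowest near that of liver 611. Muscle of mice 602 and 561, both labelled KO, held 13456 and 707 reads of 10 genes of developing sperm (among them Prm1, Prm2, Tnp1, Tnp2 and Ldhc), and no other library held more than 16. Results that rest on any of these libraries are given with and without them. In bulk tissue, fewer cells of a type and less RNA per cell cannot be told apart.

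The RefSeq promoter table (GRCm38.p6) held 5 of the 9 genes. The bases before the start of 4 of them are shown because they include carriers from both sides of the tissue difference. Slc16a3 was higher in muscle, and Slc16a12, Slc16a1 and Slc16a10 were higher in liver. The window of the fifth is not shown. The window was the 250 bases before the annotated start, shortened where it ran into an exon, read 5′ to 3′ on the strand of the gene. Capitals mark CANNTG (the E-box, which reads the same on both strands).
Slc16a3, chr11:120948817-120949052, plus strand: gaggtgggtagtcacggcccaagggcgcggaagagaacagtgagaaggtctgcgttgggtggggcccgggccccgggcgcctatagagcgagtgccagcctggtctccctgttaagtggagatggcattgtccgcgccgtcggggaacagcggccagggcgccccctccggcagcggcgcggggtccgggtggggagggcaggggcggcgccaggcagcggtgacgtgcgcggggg
Slc16a12, chr19:34747329-34747578, minus strand: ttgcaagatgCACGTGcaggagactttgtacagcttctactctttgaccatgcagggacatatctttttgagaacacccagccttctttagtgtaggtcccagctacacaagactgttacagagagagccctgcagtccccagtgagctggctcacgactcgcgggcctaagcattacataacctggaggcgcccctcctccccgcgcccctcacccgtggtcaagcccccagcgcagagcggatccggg
Slc16a1, chr3:104638414-104638663, plus strand: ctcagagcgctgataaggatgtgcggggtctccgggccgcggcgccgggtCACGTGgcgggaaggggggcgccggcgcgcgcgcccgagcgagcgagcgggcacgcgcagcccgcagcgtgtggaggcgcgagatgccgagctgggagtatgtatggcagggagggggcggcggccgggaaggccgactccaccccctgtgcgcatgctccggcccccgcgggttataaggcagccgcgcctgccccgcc
Slc16a10, chr10:40142259-40142504, minus strand: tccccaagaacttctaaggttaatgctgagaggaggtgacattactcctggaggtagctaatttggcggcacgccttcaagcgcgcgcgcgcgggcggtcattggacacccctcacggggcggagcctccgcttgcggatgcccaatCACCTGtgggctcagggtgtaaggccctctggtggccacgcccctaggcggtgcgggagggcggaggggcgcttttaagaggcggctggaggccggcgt
The 3 windows of the liver genes held 1 E-box each and that of Slc16a3 held none, while 66.2% of 32841 mouse promoter windows of 250 bases held at least 1. The ACGTG core, searched on both strands, was present in the windows of Slc16a3, Slc16a1 and Slc16a12, against 16.6% of all windows, and in Slc16a1 and Slc16a12 its matches lie inside the CACGTG shown in capitals. The GC box GGGCGG was found 3 times before Slc16a10, once before Slc16a1 and once before Slc16a3, but not before Slc16a12 (32.7% of all windows). The half-site AGGTCA was in no window of these genes and in 14% of all windows. The windows of Slc16a1 and Slc16a3 were 76.4% and 73.3% G and C, those of Slc16a10 and Slc16a12 65.0% and 57.6%, and the median over all windows was 52.4%.

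Levels were compared between genes only per length, as deposited RPKM (counted reads scaled to gene length and library depth), in the 11 WT mice. In WT liver, Bsg was the highest with 256 ± 24.2 RPKM (mean ± SD, n = 11), followed by Slc16a7 with 37.2 ± 6.47 RPKM. Slc16a10 (20.5 ± 2.56), Slc16a1 (17.9 ± 3.06), Slc16a12 (15.8 ± 2.19) and Slc16a5 (12.97 ± 6.43 RPKM) followed and overlapped with each other from neighbour to neighbour. None of the 3 neighbour pairs among these 4 genes passed the threshold of 0.05 (two-sided exact sign-flip permutation test, adjusted p = 0.143, 0.185 and 0.052 in that order). A p above it does not show equal levels, and Slc16a12 was above Slc16a5 in 9 of 11 livers. Slc16a6 (2.40 ± 0.844), Slc16a9 (1.03 ± 0.206) and Slc16a3 (0.273 ± 0.133 RPKM) were the lowest, and each was lower than its upper neighbour in 11 of 11 livers (exact adjusted p = 0.0017, the smallest reached).

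In WT muscle, Bsg was again the highest (415 ± 32.7 RPKM, mean ± SD, n = 11), and Slc16a3 came next with 149 ± 18.9 RPKM. Slc16a10 (8.59 ± 1.08) and Slc16a9 (7.03 ± 1.89 RPKM) followed, and their difference did not pass the threshold (exact permutation test, adjusted p = 0.102). Slc16a1 (4.74 ± 1.17), Slc16a6 (1.40 ± 0.425) and Slc16a12 (0.252 ± 0.129 RPKM) each lay below the gene before it. Slc16a7 (0.111 ± 0.0775) and Slc16a5 (0.094 ± 0.0484 RPKM) were the lowest. Their difference did not pass the threshold (exact permutation test, adjusted p = 0.797, over the 10 muscles with Slc16a5 above 0). Of 16 neighbour pairs in both tissues, 11 passed the threshold of 0.05. The gene length implied by the deposited counts and RPKM varied between libraries by up to 31.4% for Slc16a6, 20.5% for Slc16a9, 18.1% for Slc16a3, 10.2% for Slc16a5 and 7.35% for Slc16a7, but by at most 0.36% for Slc16a1, Slc16a10, Slc16a12 and Bsg. With CPM over 1 fixed length the order of the 9 genes was the same in both tissues, and 12 of 16 pairs passed, Slc16a12 over Slc16a5 in liver being the one added (exact adjusted p = 0.0417).

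**Figure D1:**
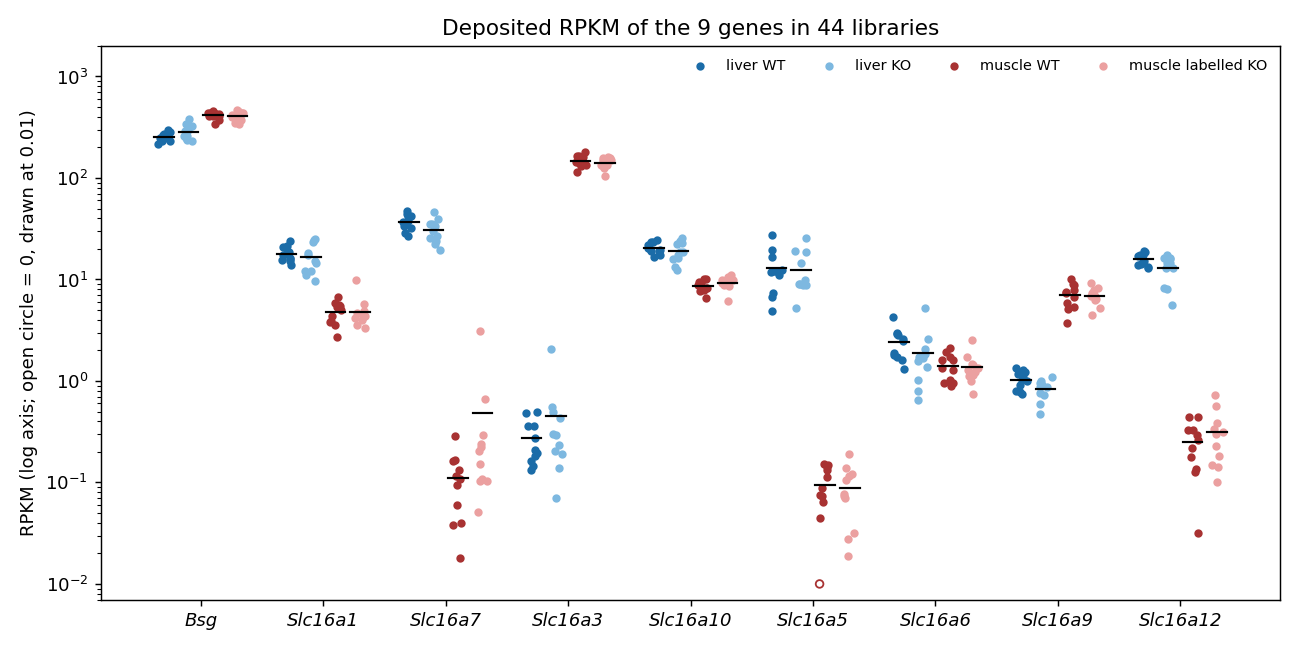
Deposited RPKM (log axis) of the 9 genes in each of the 44 libraries, with 1 point per library, coloured by tissue and genotype as labelled, and a black bar at the group mean. Slc16a3 sits at 103 to 182 RPKM in muscle and at 2.06 RPKM or less in liver, while Slc16a7, Slc16a5 and Slc16a12 show the opposite, and the open circle marks the 1 WT muscle library with Slc16a5 at 0.

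The 3 lactate carriers were present in different proportions in the 2 tissues. As shares of the summed RPKM of Slc16a1, Slc16a3 and Slc16a7, WT liver held 66.9% ± 5.23 Slc16a7, 32.7% ± 5.30 Slc16a1 and 0.493% ± 0.231 Slc16a3 (mean ± SD, n = 11). In WT muscle, the same shares were 0.0778% ± 0.0635, 3.18% ± 1.05 and 96.7% ± 1.09. The sum itself was 55.4 ± 7.02 RPKM in liver and 153 ± 18.1 RPKM in muscle, so the summed level of these carriers was higher in muscle, in the form of Slc16a3. The ratio of Bsg RPKM to that sum was 4.67 ± 0.542 in WT liver and 2.72 ± 0.249 in WT muscle.

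Between tissues, all 9 genes passed the threshold in WT mice (edgeR quasi-likelihood test, Benjamini-Hochberg adjustment over all genes tested), where 88.0% of 14739 genes did (88.4% at an unadjusted p under 0.05), so that a call by itself does not set these genes apart. Of the 9, 6 were higher in liver, where 44% of all genes were, and 3 were higher in muscle, with 44.1% of all genes. Their median log2 fold change, liver over muscle, was 1.30, beside 0.005 over all genes. For 8 of the 9, all but Slc16a6, the CPM of the 11 livers and of the 11 muscles did not overlap, against 69.7% of all genes.

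Slc16a3, which encodes the lactate exporter MCT4, was the gene furthest towards muscle. Its lowest, median and highest RPKM were 115, 145 and 182 in WT muscle and 0.134, 0.207 and 0.498 in WT liver. The log2 fold change, liver over muscle, was -8.99 (SE 0.33, edgeR adjusted p = 2.3e-28) in WT and -8.11 (SE 0.31, edgeR adjusted p = 1.6e-27) in mice labelled KO (-8.90, SE 0.18, without the liver of mouse 532 and -9.03, SE 0.20, without the 4 livers of negative slope), and all livers lay below all muscles. Liver CPM of Slc16a3 was 0.101 to 0.343% of that in muscle of the same WT mouse, and the myofibre marker sum in liver was 0.0019 to 0.032% of that in muscle. The part of muscle RNA in these liver values was not tested.

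Slc16a7, the gene for MCT2, was furthest towards liver. WT livers had 26.8, 36.9 and 47.5 RPKM (lowest, median, highest) and WT muscles 0.018, 0.109 and 0.29 RPKM, from 2 to 17 reads per library. The log2 fold change was 8.32 (SE 0.42, edgeR adjusted p = 9.3e-23) in WT. In mice labelled KO it was 6.08 (SE 0.36), and without the 2 muscle libraries that held sperm transcripts it was 7.44 (SE 0.22, edgeR adjusted p = 4.3e-31). Slc16a1, the gene for MCT1, was found in both tissues. It had 13.9, 17.5 and 23.99 RPKM in WT liver and 2.68, 4.96 and 6.66 RPKM in WT muscle, with no overlap, and its log2 fold change was 1.97 (SE 0.16, edgeR adjusted p = 7.2e-16) in WT and 1.91 (SE 0.16) in mice labelled KO.

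Slc16a5 and Slc16a12 were low in muscle. Slc16a5 (MCT6) had 4.87, 12.03 and 27.6 RPKM in WT liver, a wide range between mice, and 0, 0.088 and 0.152 RPKM in WT muscle, where the reads per library ranged from 0 to 11. Its log2 fold change was 6.95 (SE 0.33, edgeR adjusted p = 5.9e-24). Slc16a12, the creatine carrier, had 12.9, 15.2 and 19.2 RPKM in WT liver and 0.032, 0.26 and 0.438 RPKM in WT muscle, with a log2 fold change of 5.998 (SE 0.25, edgeR adjusted p = 5.1e-26). The hepatocyte marker sum in WT muscle was 0.00073 to 0.0065% of that in liver of the same mouse (median 0.0012%). Muscle CPM was 0.103 to 0.653% of liver CPM for Slc16a7 (median 0.30%). It was 0 to 2.31% for Slc16a5 (median 0.814%) and 0.177 to 3.21% for Slc16a12 (median 1.64%). The part of liver RNA in these muscle values was not tested.

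The remaining carriers differed less. Slc16a10, which carries tyrosine, tryptophan and phenylalanine, had 16.6, 20.0 and 24.7 RPKM in WT liver and 6.58, 8.27 and 10.1 RPKM in WT muscle, without overlap (log2 fold change 1.30, SE 0.11, edgeR adjusted p = 3e-15). Slc16a6 had 1.32, 2.49 and 4.26 RPKM in WT liver and 0.901, 1.35 and 2.12 RPKM in WT muscle. The ranges of Slc16a6 overlapped, with 6 of 11 livers above all muscles in CPM, and its log2 fold change was 0.74 (SE 0.20, edgeR adjusted p = 0.00067) in WT and 0.59 (SE 0.20, edgeR adjusted p = 0.0057) in mice labelled KO. On deposited RPKM the Slc16a6 call in mice labelled KO was lost (limma on log2 RPKM plus 0.1, log2 fold change 0.29, adjusted p = 0.22). Slc16a9, the carnitine carrier, was higher in muscle, with 3.75, 7.40 and 10.02 RPKM against 0.75, 1.01 and 1.34 RPKM in WT liver, and its log2 fold change, liver over muscle, was -2.59 (SE 0.14, edgeR adjusted p = 5.5e-22).

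Bsg was the most abundant of the 9 genes in both tissues and was higher in muscle. It had 343, 427 and 454 RPKM in WT muscle and 216, 256 and 297 RPKM in WT liver, with no overlap, and a log2 fold change, liver over muscle, of -0.66 (SE 0.084, edgeR adjusted p = 1.2e-09). In mice labelled KO, where 88.7% of genes passed the threshold (44.6% higher in liver, 89.0% in all at an unadjusted p under 0.05) and 60.1% did not overlap, the difference was -0.39 (SE 0.084, edgeR adjusted p = 3.5e-05) and the groups overlapped, with 7 of 11 livers below all muscles. The 4 livers within the range of muscle were the 4 with a slope below 0 on gene length, and without them the difference was -0.60 (SE 0.074). The other 8 genes kept in mice labelled KO the direction they had in WT, and 7 of the 9 genes, without Slc16a6 and Bsg, had groups that did not overlap.

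**Figure D2:**
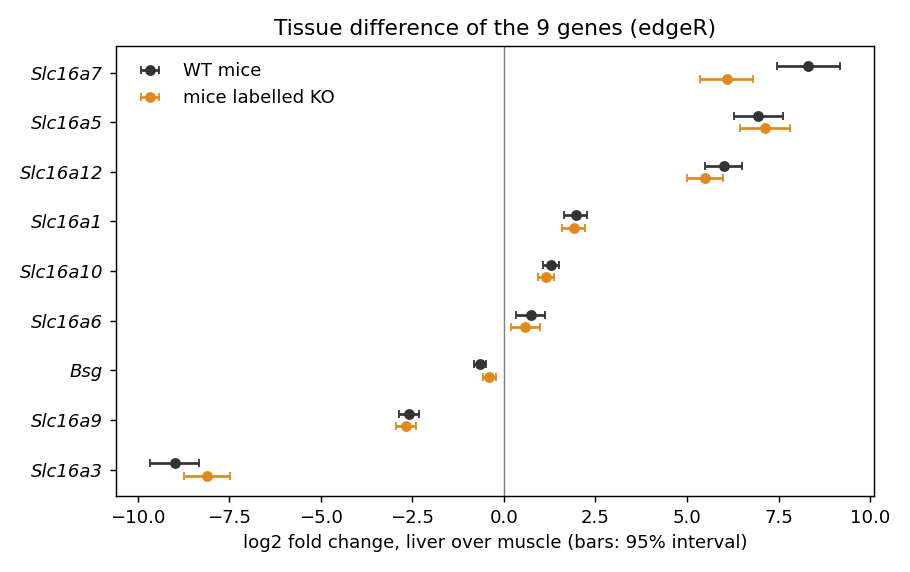
Log2 fold change of liver over muscle (x axis) for each of the 9 genes, in WT mice (dark points) and in mice labelled KO (orange points), with 95% intervals from the edgeR fit of 44 libraries. 6 genes lie to the right of 0 and 3 to the left in both genotypes, from 8.32 for Slc16a7 to -8.99 for Slc16a3 in WT.

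In liver, none of the 9 genes passed the threshold between KO and WT, where 3 of 13005 genes (0.0231%) did, 2 of them higher and 1 (0.00769%), Slc16a13, lower in KO. At an unadjusted p under 0.05 there was 1 of 9, Bsg, beside 12.9% of all genes, and DESeq2 and limma-voom also called 0 of 9. In all 9 the CPM of the 2 groups overlapped, as in all but 1 gene (0.00769%). The median log2 fold change of the 9 genes was -0.06, beside -0.005 over all genes. The genes are given here with their intervals, since a p above the threshold does not show that they did not differ.

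Bsg had a lowest, median and highest CPM of 270, 309 and 362 in WT liver and 286, 339 and 490 in KO liver. The 4 KO livers of mice 532, 602, 611 and 583, at 490, 467, 423 and 399 CPM, lay above all WT livers, and the other 7 KO livers lay within the WT range. The log2 fold change was 0.23 (95% interval 0.049 to 0.41, unadjusted p = 0.015, edgeR adjusted p = 0.38). These 4 livers are the 4 with a slope below 0 on gene length. The log2 fold change was 0.078 (95% interval -0.022 to 0.18) with gene length as an offset and 0.035 (-0.076 to 0.15) without these 4 libraries. Since these 4 livers stand apart from the rest, r with the slope is not given over all 22, and only its permutation test is given below. Within the 18 other livers, centred by genotype, Pearson's r between Bsg and the slope was -0.46 (permutation p = 0.0596) and Spearman's rho was -0.377 (permutation p = 0.168), and r was -0.37 without the 2 farthest livers. For Slc16a1 the same values were 0.056 (permutation p = 0.858), -0.225 (permutation p = 0.426) and -0.052. Bsg had the shortest implied gene length of the 9, 1244 bases, the others lying between 1809 and 5394 bases.

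Slc16a3 was near its floor in liver, with 9 to 31 reads in WT and 4 to 29 reads in 10 of 11 KO livers. The liver of mouse 532 had 142 reads, and it set the difference. The log2 fold change was 0.82 (SE 0.44, edgeR adjusted p = 0.38) with it and 0.046 (SE 0.26, edgeR adjusted p = 0.95) without it, and DESeq2 gave 0.04 over all 22 libraries. That library also had the highest macrophage marker sum of the 22 livers, 810 CPM against 272 to 491 CPM in the others, as well as the highest neutrophil, cholangiocyte and adipocyte sums and the lowest endothelial sum. All 8 macrophage markers had more than 3 reads in at least 1 library of each liver group. Of 6 adipocyte markers, 4 in WT and 3 in KO liver had at most 3 reads in every library, as had 2 and 1 of 7 neutrophil markers. The liver of mouse 532 also had the steepest slope on gene length (-0.53). The part of these cells, or of the slope, in the Slc16a3 value was not tested.

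Slc16a7 was 65.2, 87.3 and 114 CPM in WT liver and 50.4, 75.0 and 108 CPM in KO liver, with 4 KO livers below all WT livers. Those 4 are again the livers of mice 602, 532, 583 and 611, and the log2 fold change was -0.23 (95% interval -0.48 to 0.014, edgeR adjusted p = 0.38) over 22 libraries, -0.24 with gene length as an offset and -0.04 (-0.25 to 0.17) without these 4. Slc16a12 was 51.3, 60.0 and 76.4 CPM in WT and 23.7, 59.8 and 68.0 CPM in KO, and the 3 lowest KO livers, of mice 532, 583 and 602, lay below all WT livers. Its log2 fold change went from -0.23 (95% interval -0.53 to 0.068, edgeR adjusted p = 0.41) to -0.15 (-0.37 to 0.061) with gene length as an offset and 0.00 (-0.18 to 0.18) without the 4 libraries. For Slc16a7 and Slc16a12, then, the KO values outside the WT range all came from libraries with a slope below 0.

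Slc16a6, a carrier linked to ketone body release from hepatocytes, was 4.55, 7.51 and 10.7 CPM in WT liver and 2.76, 5.21 and 12.7 CPM in KO liver (log2 fold change -0.29, 95% interval -0.74 to 0.16, edgeR adjusted p = 0.46). Its 3 lowest values were in mice 583, 602 and 532, and its highest was in a KO liver too. Without the 4 livers of negative slope the log2 fold change of Slc16a6 was -0.024 (-0.45 to 0.41). Slc16a1 was 60.2, 76.4 and 107 CPM in WT and 43.3, 76.9 and 111 CPM in KO, so that the medians were alike and the KO range was wider at both ends. For Slc16a1 the log2 fold change was -0.059 (95% interval -0.36 to 0.24, edgeR adjusted p = 0.82). Slc16a10 (-0.063, -0.30 to 0.17), Slc16a9 (-0.16, -0.42 to 0.10) and Slc16a5 (-0.0055, -0.54 to 0.52) gave log2 fold changes whose 95% intervals, in parentheses, also included 0, with edgeR adjusted p of 0.75, 0.48 and 0.99. The SD of log2 CPM was larger in KO than in WT liver for 7 of the 9 genes, for instance 0.449 against 0.227 for Slc16a1, while the median SD over all genes tested was 0.348 in KO and 0.175 in WT.

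**Figure D3:**
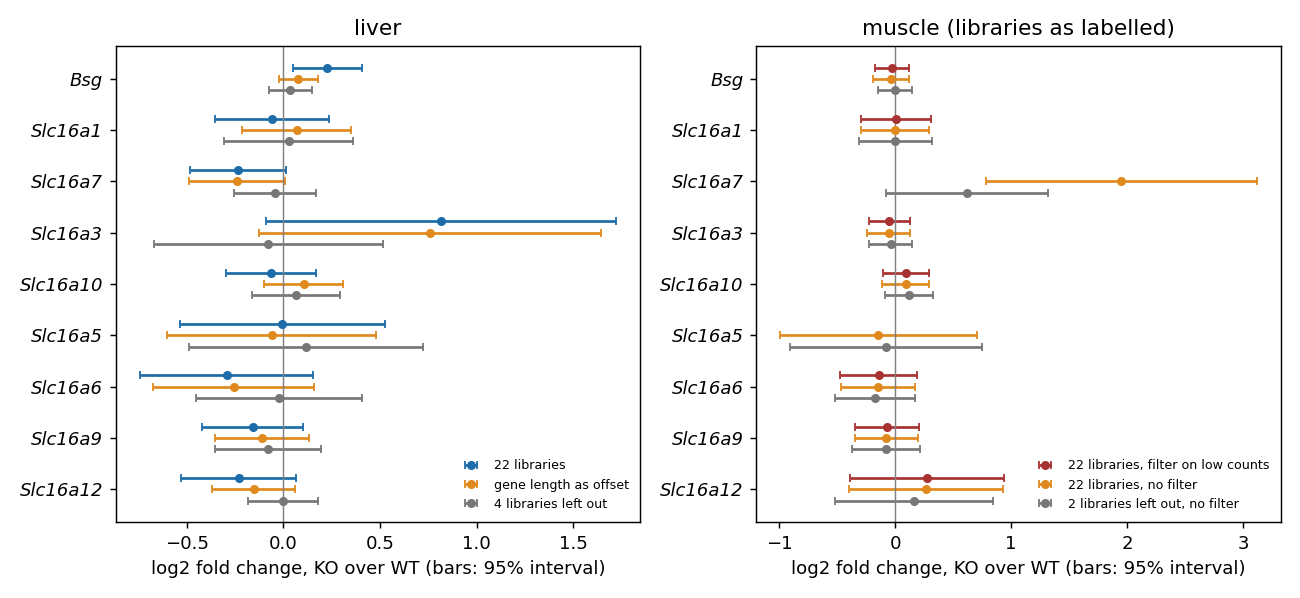
Log2 fold change of KO over WT (x axis) for each of the 9 genes, with 95% intervals, in liver (left, over 22 libraries, with gene length as an offset and without the 4 libraries with a slope below 0) and in muscle as labelled (right, with the filter, without the filter and without the 2 libraries that held sperm transcripts). Bsg and Slc16a3 in liver and Slc16a7 in muscle move towards 0 when those libraries are left out.

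In muscle, 7 of the 9 genes had enough reads to be tested, Slc16a5 and Slc16a7 being the exceptions, and none passed the threshold, where 1 of 13266 genes (0.00754%) did. Of the 7, 0 had an unadjusted p under 0.05, beside 8.64% of all genes, and DESeq2 and limma-voom called 0 as well. The median log2 fold change was -0.03 over the 7 genes and 0.008 over all genes. The intervals of the 2 most abundant genes were narrow. Slc16a3 had 235, 327 and 376 CPM in WT and 210, 310 and 360 CPM in muscle labelled KO, with a log2 fold change of -0.051 (95% interval -0.23 to 0.13, edgeR adjusted p = 0.89). Bsg had 418, 557 and 572 CPM in WT and 398, 531 and 600 CPM in muscle labelled KO (-0.027, 95% interval -0.18 to 0.12, edgeR adjusted p = 0.93).

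Slc16a1 was 12.4, 23.2 and 28.8 CPM in WT muscle and 15.0, 19.1 and 40.3 CPM in muscle labelled KO. The highest value, 1540 reads, was in mouse 611, and the groups overlapped otherwise. Its log2 fold change was 0.0067 (95% interval -0.30 to 0.31, edgeR adjusted p = 0.99), and -0.13 without that library. Muscle of mouse 611 also had the lowest Slc16a3, Bsg and Slc16a10 CPM of the 22 muscles, the highest endothelial, Schwann cell and nerve, macrophage and erythroid marker sums and the lowest myofibre and fast glycolytic fibre sums (103900 and 73580 CPM). Of 8 slow oxidative fibre markers 7 were tested, and all 7 had a negative log2 fold change in muscle labelled KO (median -1.63), 5 of them at an unadjusted p under 0.05 and 0 past the threshold, with summed CPM of 79.8 to 1776 in WT and 103 to 1276 in muscle labelled KO. The part of these cells and fibres in the Slc16a1 value was not tested.

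Slc16a10 (0.095, -0.10 to 0.29), Slc16a9 (-0.069, -0.35 to 0.21), Slc16a6 (-0.14, -0.47 to 0.19) and Slc16a12 (0.28, -0.39 to 0.94) had log2 fold changes with 95% intervals that included 0. Slc16a12 had 3 to 60 reads in WT and 11 to 104 reads in muscle labelled KO, the 2 highest being mice 611 and 561. These 2 muscles also had the highest adipocyte sums (1355 and 1496 CPM against 231 to 681 CPM in the other muscles). They had the highest fibroblast (1062 and 949 CPM), endothelial (430 and 384 CPM) and macrophage sums (82.6 and 75.6 CPM) as well. The part of these cells in the Slc16a12 value was not tested.

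Slc16a7 in muscle was highest in 2 libraries labelled KO. WT muscles had 2, 8 and 17 reads (lowest, median, highest), and muscles labelled KO had 3, 16 and 216 reads, with 38 in the next highest. The 216 reads were in mouse 602 and the 38 reads in mouse 561, the same 2 libraries that held transcripts of developing sperm, at 13456 and 707 summed reads against 1 to 16 in the 20 other muscles. MCT2 is known to be abundant in male germ cells. Fitted with no filter, the log2 fold change was 1.95 (95% interval 0.78 to 3.1, unadjusted p = 0.0020, edgeR adjusted p = 0.24), and without these 2 libraries it was 0.62 (-0.076 to 1.3, unadjusted p = 0.078, edgeR adjusted p = 0.76). In muscle of mouse 602, each of the 10 sperm genes had 523 to 3091 reads, and none of the 13 cell type sums of that library was the highest or the lowest of its tissue. For the 8 genes other than Slc16a7, that library was neither the highest nor the lowest of the muscles labelled KO. The part of sperm RNA in the Slc16a7 value was not tested.

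**Figure D4:**
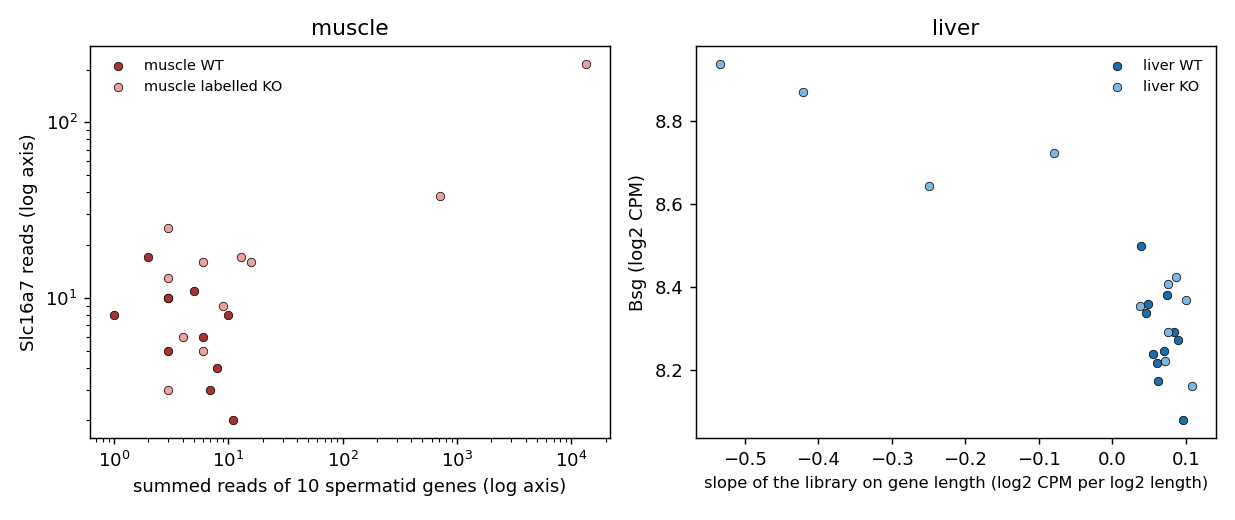
Left, Slc16a7 reads against the summed reads of 10 sperm genes in the 22 muscle libraries (both axes log), with mice 602 (216 against 13456 reads) and 561 (38 against 707 reads) apart from the rest. Right, Bsg log2 CPM against the slope of each liver library on gene length, with the 4 KO livers of negative slope to the left and above all WT livers.

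A genotype effect that differed between tissues was tested in a fit of all 44 libraries. None of the 9 genes passed the threshold, and 1 of 14739 genes (0.00678%), Slc16a13 itself, did. At an unadjusted p under 0.05 there were 3 of 9, beside 16.2% of all genes. These were Slc16a7 (difference of log2 fold changes, liver minus muscle, -2.23, SE 0.56, edgeR adjusted p = 0.20), Slc16a3 (0.88, SE 0.41, edgeR adjusted p = 0.29) and Bsg (0.27, SE 0.12, edgeR adjusted p = 0.29). Each was smaller without libraries already named. Slc16a7 came to -0.87 (SE 0.33, unadjusted p = 0.011, edgeR adjusted p = 0.42) without muscle of mice 561 and 602, still at an unadjusted p under 0.05, Slc16a3 to 0.083 (SE 0.24) without liver of mouse 532, and Bsg to 0.061 (SE 0.097) without the 4 livers of negative slope. DESeq2 placed Slc16a7 just past the threshold (-2.18, adjusted p = 0.04995) and called 44 genes in all.

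Genes that work with these carriers were followed through lists of 4 to 22 genes, and their levels are given in RPKM as WT medians. In liver, 0 of 21 tested genes of lactate and pyruvate metabolism, 0 of 7 of ketone body metabolism, 0 of 9 of carnitine handling, 0 of 5 of creatine handling, 0 of 13 of aromatic amino acid transport and breakdown, 0 of 6 of thyroid hormone handling, 0 of 5 basigin ligands and proteases, 0 of 10 regulators and 0 of 2 other chaperones passed the threshold between KO and WT. In muscle as labelled, the counts were 0 of 21, 0 of 7, 0 of 8, 0 of 6, 0 of 8, 0 of 6, 0 of 5, 0 of 10 and 0 of 2 in the same order. Among the other Slc16 genes, 1 of 3 fell in liver, Slc16a13 itself, and 1 of 5 rose in muscle, Slc16a11 (log2 fold change 2.03, SE 0.31, edgeR adjusted p = 0.014), a call lost without muscle of mice 561 and 602. Slc16a11 was low in muscle, at 0 to 0.458 RPKM in WT and 0.184 to 1.27 RPKM in muscle labelled KO. In KO liver it also had a positive log2 fold change, short of the threshold (0.49, SE 0.13, edgeR adjusted p = 0.38). In the liver lists, the smallest p in the lactate list was that of Pklr, the liver pyruvate kinase (-0.61, SE 0.20, edgeR adjusted p = 0.38). In the aromatic list it was Hpd, an enzyme of tyrosine breakdown (0.33, SE 0.11, edgeR adjusted p = 0.38), and neither passed the threshold.

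Between tissues the partners of the liver-high and muscle-high carriers lay on both sides. Of the lactate and pyruvate list, 8 of 22 were higher in liver and 11 in muscle in WT (median log2 fold change -0.53, all genes 0.005). Pklr and Pck1 stood at 94.6 and 936 RPKM in liver and 0 and 5.97 in muscle, and Pkm and Pdk4 at 7.60 and 4.69 RPKM in liver and 1485 and 1019 in muscle, beside Slc16a3 in the latter. Of 7 ketone body genes, 6 were higher in liver, among them Bdh1, which converts acetoacetate and 3-hydroxybutyrate into each other (209 against 2.46 RPKM), and 1 in muscle, Oxct1, the enzyme of ketone body use (1.59 against 132 RPKM). Of 9 carnitine genes, 7 were higher in liver, the side opposite to Slc16a9, and 2 in muscle, the side of Slc16a9. Bbox1, which makes carnitine, stood at 70.5 against 0.01 RPKM, and Cpt1b, the muscle carnitine palmitoyltransferase, at 3.995 against 195 RPKM. Creatine is made in liver and used in muscle, and Gamt, an enzyme of its synthesis, was 125 against 10.4 RPKM, with Ckm, the muscle creatine kinase, at 0.475 against 14470 RPKM. Of 6 tested creatine genes, 2 were higher in liver, the side of Slc16a12, and 3 in muscle. Of 13 genes of aromatic amino acid transport and breakdown, 10 were higher in liver, the side of Slc16a10, and 3 in muscle. Hpd was among the 10 (1657 against 0 RPKM). Of 7 tested genes of thyroid hormone handling, 5 were higher in liver, among them Dio1, a deiodinase, at 124 against 0 RPKM. Both other chaperones were higher in muscle, Emb (embigin, the usual partner of MCT2) at 0.242 against 0.62 RPKM and Nptn (neuroplastin) at 37.3 against 71.6 RPKM, so that Emb was on the opposite side of Slc16a7.

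Across mice, 12 relations of these genes were computed within a tissue, on log2 CPM centred by genotype over 22 libraries (permutation within genotype, Benjamini-Hochberg adjustment over the 12). In muscle, Slc16a3 rose with the mean of 5 fast glycolytic fibre markers (r = 0.892, rho = 0.777, adjusted permutation p = 4e-05 and 0.00048). Slc16a3 also rose with Bsg (r = 0.901, rho = 0.832, adjusted permutation p = 4e-05 and 0.00036). Without the 2 farthest libraries r was 0.838 and 0.87, and within WT and within muscle labelled KO it was 0.856 and 0.922 for the fibre markers and 0.853 and 0.941 for Bsg. For r of these 2 relations, and of Slc16a1 with Bsg below, the unadjusted p of 1e-05 is the smallest that 100000 permutations can give.

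Slc16a1 went the other way. It fell as Bsg rose (r = -0.751, rho = -0.673, adjusted permutation p = 4e-05 and 0.0037), with r = -0.662 without the 2 farthest libraries and -0.745 and -0.76 within the genotypes. It rose with the slow oxidative fibre markers (r = 0.593, rho = 0.591, adjusted permutation p = 0.0088 and 0.0107), with the endothelial markers (r = 0.76, rho = 0.705, adjusted permutation p = 9e-05 and 0.0026) and with the Schwann cell and nerve markers (r = 0.715, rho = 0.586, adjusted permutation p = 0.0055 and 0.0107). Without the 2 farthest libraries these were 0.585, 0.623 and 0.502. The endothelial and nerve relations were closer within muscle labelled KO (0.908 and 0.898), which holds mouse 611, than within WT (0.556 and 0.485), a difference that was not tested. The muscle taken for sequencing is not named in the sources used here, although the study used quadriceps for other measurements. The share of each fibre type or cell type in a sample cannot be told apart from the level per cell.

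In liver, Bsg with the slope on gene length passed the threshold over 22 livers (adjusted permutation p = 0.000216 for r and 0.00982 for rho). The livers of negative slope stand apart, so this test does not show a graded relation, and r over all livers is not given. Within WT, which holds none of those livers, r was -0.59. Slc16a1 with the slope did not pass (adjusted permutation p = 0.435 and 0.913). Nor did 3 further liver relations. Slc16a1 with Bsg gave r = -0.27 (adjusted permutation p = 0.435), Slc16a1 with endothelial markers 0.066 (adjusted permutation p = 0.798) and Slc16a10 with Tat, an enzyme of tyrosine breakdown, 0.201 (adjusted permutation p = 0.435). Spearman's rho was -0.291, -0.15 and 0.168 (adjusted permutation p = 0.302, 0.568 and 0.564), and r without the 2 farthest livers was -0.204, -0.034 and 0.24.

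**Figure D5:**
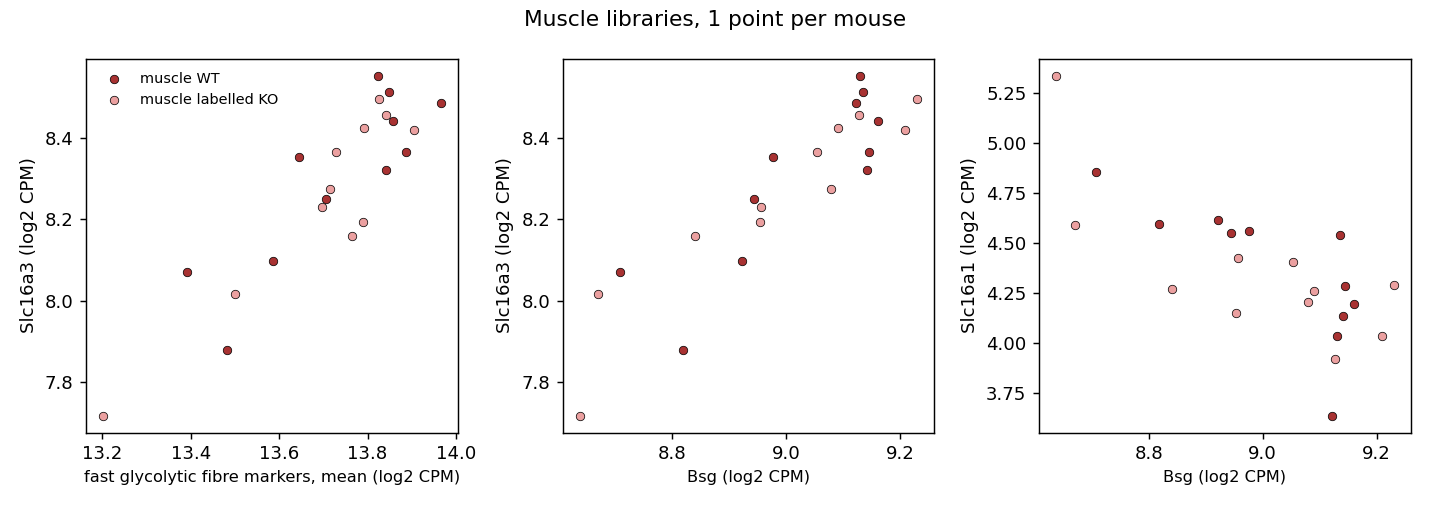
Log2 CPM in the 22 muscle libraries, 1 point per mouse, of Slc16a3 against the mean of the fast glycolytic fibre markers (left), of Slc16a3 against Bsg (middle) and of Slc16a1 against Bsg (right), coloured by genotype as labelled. Slc16a3 rises with both (r = 0.892 and 0.901) and Slc16a1 falls with Bsg (r = -0.751), with mouse 611 at the end of each plot.

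The genes whose log2 CPM was most like that of each carrier were ranked by Pearson's r over the 22 libraries of a tissue, centred by genotype and with the dependence on gene length removed. These values are a description over libraries that share the same mice. In muscle, Slc16a9 was closest to Arntl, which encodes the clock factor BMAL1 (r = 0.951, and 0.947 without mice 561 and 611), well before the next gene, Ssh2 (0.85). Slc16a3 was closest to Phka1, a subunit of muscle phosphorylase kinase (0.94), Wdr7 (0.937) and Armc8 (0.928), and Bsg to Kcmf1 (0.94), Gid4 (0.925) and Ccnk (0.923). Slc16a1 was closest to Nceh1 (0.918), Acsl1 (0.917), an acyl-CoA synthetase, and Ptpn3 (0.916). For Slc16a12 they were AI662270 (0.893), Lum and Pros1 (both 0.892), Lum being one of the fibroblast markers. Slc16a10 was closest to R3hdm4 (0.913), Adipor1 (0.912) and Dcaf8 (0.909), and Slc16a6 to Fam107b (0.857), Aldh9a1 (0.852) and Chrna2 (0.843).

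In liver, Slc16a10 was closest to Slc25a38 (0.931), Fkbp4 (0.918) and Rxra (0.909), and Slc16a7 to Slc25a5 (0.89), Gimd1 (0.886) and Siae (0.884). Slc16a1 was closest to Spon2 (0.888), Blcap (0.858) and Rfx4 (0.856), which were 0.895, 0.852 and 0.91 over the 18 livers with a slope above 0. Slc16a12 was closest to Phtf2 (0.885), Mex3c (0.855) and Ugt2b34 (0.842), of which the last 2 fell to 0.604 and 0.594 over those 18. Slc16a3 was closest to Irf8, a factor of myeloid cells (0.828), Tap2 (0.825), of antigen presentation, and Esyt1 (0.814), and over those 18 livers, without mouse 532, the values were 0.542, 0.588 and 0.671. Slc16a6 was closest to Cpne8 (0.863), Slc16a5 to Cyp3a59 (0.781), Slc16a9 to Tbc1d14 (0.786) and Bsg to 4430402I18Rik (0.765).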

How the data were processed

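RNA-Seq libraries of liver and skeletal muscle (n = 11 per tissue and genotype, 85-base single-end reads, poly(A) selected, strand-specific kit) were analysed as labelled. The deposited tables hold, for each library, raw counts per gene, which the authors made from reads aligned to the mouse genome, and RPKM, which the authors scaled to depth and to a gene length that differed between libraries for some genes. All 44 libraries carried a group label, and 36340 of 38202 genes have a symbol.

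Counts were fitted with edgeR 4.0.16 (TMM scaling, filterByExpr, quasi-likelihood test, Benjamini-Hochberg adjustment over all genes tested, threshold 0.05), per tissue for KO against WT and over 44 libraries for tissue and interaction. Confidence intervals are at 95%. Alternatives were DESeq2 1.42.0, limma-voom and limma 3.58.1 on log2 RPKM plus 0.1 or 1, total-count scaling, other filters (none, or at least 10 counts in every library), a loess offset on gene length (span 0.3), leaving out the livers with a slope below 0, leaving out each library in turn and mouse as a block. R 4.3.3 and, for permutation tests (100000 draws, or exact), SciPy 1.17.1 were used. The fits were tested on simulated data with large changes planted in genes with many reads. That test does not cover small changes, genes with few reads, or libraries that stand apart.

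The 9 genes and the lists were chosen with earlier results of these data known. The sperm gene list, and the fits of tissue and interaction without single libraries or without muscle of mice 561 and 602, were chosen after seeing the data. Genes named from lists were those with the smallest p per list and, between tissues, the ones furthest in each direction among those past the threshold. Sequences were taken from RefSeq promoter entries (GRCm38.p6), and a gene was taken as alike by the 3 highest r. Same-numbered liver and muscle come from 1 animal, as the labels state. Deviations from group means correlated with a mean r of 0.102 within a mouse (12 of 22 pairs above 0.1). Between different mice of a genotype the mean r was -0.01 (20 of 220 pairs above 0.1). Centring by group largely ties that mean to the first, so it is no separate contrast. No libraries were identical. Values of some list genes, and 1 of the 12 relations, are not reported here. How libraries were divided over sequencing pools is not given in the sources used here, so pools could not be checked. Intervals and floors cover counting error and the spread between mice in these libraries.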

Additional observations from a re-analysis of the deposited data

Results flagged for a closer look

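The genotype effect on Slc16a13 differed between tissues, by -6.08 on the log2 scale, liver minus muscle (edgeR interaction term, adjusted p = 5.9e-16), since its reads were near 0 in KO liver and not lower in muscle labelled KO. Reads of 10 genes of developing sperm, which no comparison used, summed to 13456 in muscle of mouse 602 and 707 in muscle of mouse 561, both labelled KO, against 1 to 11 in WT muscle. Slc16a7 was the highest in the same 2 muscle libraries, at 216 and 38 reads.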

How the results depend on the processing

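Between tissues, all 99 values of the 9 genes in WT under the alternatives kept their direction and their call, as did 97 of 99 in mice labelled KO, the exceptions being Slc16a6 on log2 RPKM plus 0.1 and plus 1. For KO against WT, none of the 9 genes passed the threshold under any alternative. The count of genes called in liver was 3, with 6 by DESeq2, 1 with at least 10 counts in every library, 4 without a filter, 2 with gene length as offset and 3 to 3 when each library was left out. In muscle the single call was lost (0 genes) by limma-voom, without a filter, with at least 10 counts, on log2 RPKM plus 0.1 or 1, and without mice 561 and 602 with or without the filter. The interaction called 1 gene, but 44 by DESeq2, among them 1 of the 9, 3 with total counts, 2 on log2 RPKM plus 0.1 or 1 and 2 without the livers of negative slope. Directions of differences short of the threshold turned in these cases. In liver they were Slc16a1 (0.0693 with gene length as offset, 0.0272 without the negative-slope livers), Slc16a3 (-0.0786 without those livers), Slc16a10 (0.1053 and 0.0642) and Slc16a5 (0.0038 by DESeq2, 0.042 by limma-voom, 0.1177 without those livers, -0.1328 to 0.1719 leaving out 1 library). In muscle they were Slc16a1 (-0.0014 by limma-voom, -0.0007 without filter, -0.015 with the length offset, -0.1343 to 0.0632 leaving out 1 library) and Bsg (-0.0558 to 0.007 leaving out 1 library). In the interaction they were Slc16a1 (0.0204), Slc16a3 (-0.0499) and Slc16a6 (0.1174) without the negative-slope livers and Slc16a5 (-0.0315) on log2 RPKM plus 1. The cause was not tested.

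With mouse as a replicate block, which pairs liver and muscle of 1 animal, 12993 genes in WT, 13111 in mice labelled KO and 1 in the interaction passed the threshold, with 9, 9 and 0 of the 9 genes, and no call among the 9 changed. Total-count scaling put the median of all genes at -0.12 between tissues in mice labelled KO, against 0.011 with TMM scaling, and no direction of the 9 genes turned with it. Slc16a5 and Slc16a7 in muscle and Slc16a3 in liver rest on few reads, which limits their precision.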
